A study of Mus musculus with 6 samples.

Results

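The complement genes C1qa, C1qb, C1qc, C3, C4b, Cfi, Serping1, Cd55 and Cd59a were read out by their gene symbols in the gene tables of retinal RNAseq. All 9 were among the 19401 genes of the files, of which 17705 had an Entrez identifier, and all 9 passed the filter on low counts that left 15537 genes for testing. The retinas were from 5XFAD mice, which are hemizygous for human amyloid precursor protein and human presenilin 1 transgenes that carry mutations of familial Alzheimer's disease, on the B6SJL background. Control mice drank water with the vehicle Tween 80, and EFV-treated mice drank the same vehicle with efavirenz (EFV), an anti-HIV drug used here at a low dose, from 3 to 9 months of age. By the labels the drug was given at 0.08 mg/kg, and the methods of the study state a slightly higher daily dose. Each group had 3 libraries from animals of 9 months, and each library was a pool of retina plus retinal pigment epithelium (RPE), 1 eye per animal, of 5 to 6 mice, described as male. Both groups carried the transgenes, whose Thy1 promoter acts in neurons, and no wild-type library was analysed here, so the values compare treated with untreated 5XFAD retina and not 5XFAD with healthy retina.

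Complement is a cascade of proteases and opsonins of innate immunity. C1q, assembled from the products of C1qa, C1qb and C1qc and made in nervous tissue mainly by microglia and macrophages, recognises tagged surfaces and starts the classical pathway, which cleaves C4 and then C3. Deposited C3 fragments mark synapses and debris for phagocytosis, and secreted or membrane-bound regulators such as factor I, C1 inhibitor, CD55 and CD59 stop the cascade at successive steps. In the retina, complement is known for its roles in synapse pruning and in age-related macular degeneration.

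The 9 genes were transcribed at very different levels, and for none of them did the difference between control and EFV-treated retina pass the test. Cd59a, which encodes an inhibitor of the membrane attack complex, was the most abundant, and Cfi, which encodes factor I, and Cd55, which encodes decay accelerating factor, were barely above the filter. The differences between the groups ranged from a log2 fold change of -0.18 for C1qa to 0.29 for Cfi, and every 95% interval included 0. The only gene whose 3 EFV-treated libraries all lay apart from its 3 control libraries was C1qc, and its difference did not pass the test. In the edgeR test the adjusted p was 0.999 for all 9 genes, 0.00% of all genes tested were called at an adjusted p of 0.05, and the groups lay apart in either direction for 8.14% of all genes on the scale of counts corrected for library size.

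The position of the C1q genes was taken from the GENCODE annotation (M21) of mouse build GRCm38. C1qb, C1qc and C1qa lie side by side on the minus strand of chromosome 4, with 3616 bases between C1qb and C1qc and 2851 between C1qc and C1qa, and each has 3 exons. RefSeq promoters, from 250 bases before to 50 after the annotated start in build GRCm38.p6, were matched for 5 of the 9 members, namely C1qb, C1qc, C3, Cd55 and Cd59a. The promoters of the neighbours C1qb (chr4:136886151-136886450, minus strand) and C1qc (chr4:136892865-136893164, minus strand) are shown because their genes belong to 1 cluster and had similar levels, with a mean FPKM of 4.01 and 3.83. Capitals mark matches, on either strand, to GAGGAA, a core bound by the myeloid factor PU.1, and to GGGCGG, the GC box.
C1qb: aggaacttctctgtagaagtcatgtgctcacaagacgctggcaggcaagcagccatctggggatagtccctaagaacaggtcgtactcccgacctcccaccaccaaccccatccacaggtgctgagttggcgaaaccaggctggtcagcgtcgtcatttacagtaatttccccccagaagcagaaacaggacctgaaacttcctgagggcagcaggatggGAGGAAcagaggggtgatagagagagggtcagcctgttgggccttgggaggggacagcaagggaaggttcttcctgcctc
C1qc: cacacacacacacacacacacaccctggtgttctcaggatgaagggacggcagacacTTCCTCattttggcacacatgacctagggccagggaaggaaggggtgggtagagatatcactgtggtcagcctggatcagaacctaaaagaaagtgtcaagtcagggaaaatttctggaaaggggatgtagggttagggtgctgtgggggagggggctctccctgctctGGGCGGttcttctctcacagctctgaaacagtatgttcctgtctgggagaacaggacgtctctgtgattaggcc
The match to GAGGAA began 30 bases before the start of C1qb and, on the opposite strand, 193 bases before the start of C1qc. The match to GGGCGG began 24 bases before the start of C1qc. GENCODE places the start of C1qc at 136893065, upstream of the RefSeq start and within the stretch shown. The distances for C1qc thus hold for the RefSeq start only. No match overlapped another. Such matches are common, since 28.3% of the 32851 RefSeq promoters of this length held GAGGAA and 35.7% held GGGCGG. Among the other members with a promoter, Cd59a held GAGGAA, Cd55 held 2 matches to GGGCGG and C3 held neither, but C3 held TATAAA, the letters of the TATA box, beginning 14 bases after the annotated start. TATAAA occurred in 13.6% of all promoters. CCAAT, the CCAAT box, was searched as well and was in none of the 5, against 37.4% of all promoters.

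A different kind of sequence bears on C4b. Mouse C4b has a close copy, C4a, and the reference transcripts of the pair were identical at 96.1% of 5367 aligned bases. Reads from shared stretches cannot be assigned by sequence, and RSEM divides them by an estimate. Of the stretches of 100 bases in C4b, 16.5% occurred without a mismatch in C4a. Of 2716 windows of 60 aligned coding bases without a gap inside single exons, 767 held no difference between the genes. Among these windows, the one that tells them apart best holds 13 differences. It lies in exon 21 of 41 of C4b (chr17:34735430-34735489, minus strand, GRCm38). Capitals mark the bases that differ in these GENCODE transcript sequences.
C4b: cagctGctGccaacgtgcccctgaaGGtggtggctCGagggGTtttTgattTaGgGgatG
C4a: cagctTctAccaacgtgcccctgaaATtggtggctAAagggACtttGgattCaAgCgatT
For the other 2 members with a near copy, the overlap was smaller, as 0.293% of the stretches of 100 bases in Cd59a occurred in Cd59b and 6.86% of those in Cd55 occurred in Cd55b. The C1q genes shared no stretch of 50 bases with each other.

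The 6 libraries held between 23455167 and 24590278 expected counts, so depth was nearly equal. Expected counts are estimates of reads per gene, and FPKM divides them by gene length and library total. FPKM is used below for levels, and the tests were made on the counts. Control library 3 stood apart by lens markers, with a summed FPKM of 276.14 against 4.83 to 10.85 in the other libraries. Red blood cell markers were highest in EFV-treated 3 and control 1. Their summed FPKM was 263.86, 131.39 and 172.67 in control and 127.33, 113.58 and 289.05 in EFV-treated libraries. RPE markers also varied, with a summed FPKM of 50.74, 25.66 and 49.27 in control and 47.81, 59.19 and 60.21 in EFV-treated libraries. Control 2 was lowest, and the groups overlapped, as controls 1 and 3 lay above EFV-treated 1. All 8 RPE markers had a log2 fold change above 0. Of these, 4 (Rpe65, Lrat, Stra6 and Kcnj13) were higher at an edgeR unadjusted p of 0.05 or less and a change of at least 7%, against 1.47% of all genes tested. At the same limits Col1a2, a fibroblast marker, was higher (log2 fold change 0.50, edgeR unadjusted p = 0.0312), Mbp, a marker of oligodendrocytes, was higher (0.20, edgeR unadjusted p = 0.041), and all 6 tested lens markers were lower, against 1.54% of all genes tested. The 4 RPE markers and Slc16a8 of the same list are also in the table of changed genes that the study made from these samples. So are Col1a2, Mbp and some of the lens markers. The calls in these lists are thus not independent evidence. The part of these tissues in the complement values was not tested. In bulk tissue, fewer cells of a type and less RNA per cell cannot be told apart.

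By level the 9 genes fell into 5 steps that did not overlap in range over the 6 libraries. Cd59a had a mean FPKM of 38.1 ± 2.53 (SD, n = 6), 8.63 times that of C1qa and above 88.1% of the tested genes with an Entrez identifier. C1qa (4.41), Serping1 (4.19), C1qb (4.01) and C1qc (3.83) formed the next step, and neighbours in this order did not differ beyond their spread. C4b followed with a mean FPKM of 1.98 ± 0.250 and C3 with 0.733 ± 0.237. Cd55 (0.287) and Cfi (0.245) were lowest, and their ranges overlapped. Only 4.22% of the tested genes with an Entrez identifier had a lower mean FPKM than Cd55, and 3.34% had a lower one than Cfi. A membrane regulator was thus at the top, 2 other regulators were at the bottom, and the initiating subunits lay in between, together with the secreted regulator Serping1.

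**Figure D1:**
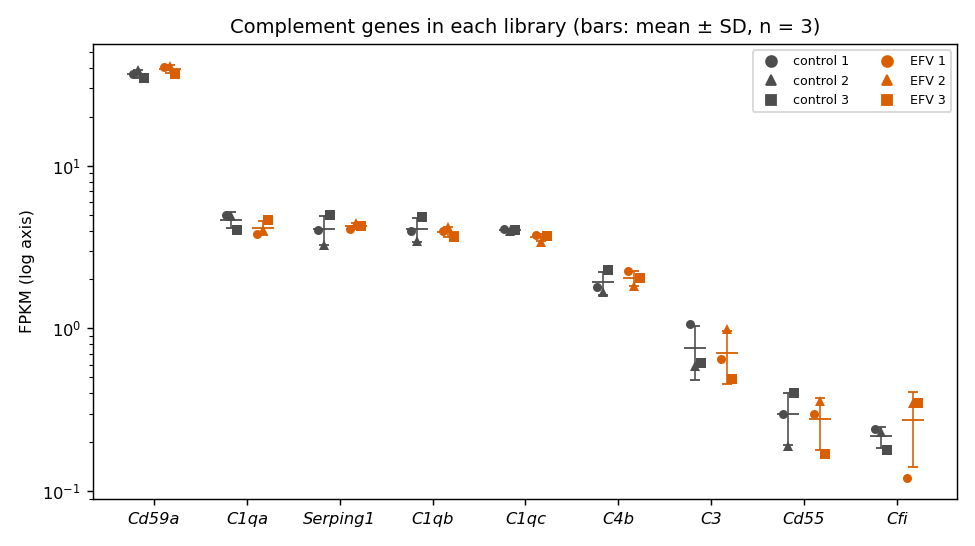
FPKM of the 9 complement genes on a log axis, with one symbol per library and bars for the mean ± SD of 3 control (grey) and 3 EFV-treated (orange) libraries. Cd59a lay near 38.1 and Cfi near 0.245, and the symbols of the groups intermingled for every gene except C1qc.

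The initiating subunits came first in the comparison. C1qa, the A chain of C1q, had FPKM values of 5.00, 4.91 and 4.05 in control libraries 1 to 3 and of 3.82, 4.03 and 4.65 in EFV-treated libraries 1 to 3. Control 3 lay among the EFV-treated libraries, and the groups overlapped. The mean was 4.65 ± 0.524 (SD, n = 3) in control and 4.17 ± 0.432 in EFV-treated retina, with a log2 fold change of -0.18 (SE 0.15, 95% interval -0.52 to 0.17, edgeR unadjusted p = 0.272). C1qb, the B chain, had FPKM values of 3.97, 3.44 and 4.83 in control and of 3.98, 4.19 and 3.63 in EFV-treated retina. Both extremes of C1qb were control libraries, so the EFV-treated values lay inside the control range. Its log2 fold change was -0.07 (SE 0.17, 95% interval -0.45 to 0.31, edgeR unadjusted p = 0.691), and without control 3 it was 0.07.

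C1qc, the C chain, had FPKM values of 4.09, 3.95 and 4.04 in control and of 3.78, 3.40 and 3.71 in EFV-treated retina. Every control library was above every EFV-treated library, on the FPKM scale and on that of counts scaled to library size (CPM). C1qc was the 1 member of 9 whose groups lay apart. In either direction, the groups lay apart for 8.14% of all genes tested by CPM and for 7.67% by FPKM, and with the EFV-treated libraries lower for 4.18% and 2.68%, so a count of 1 is not a result about the members. The mean FPKM was 4.03 ± 0.0709 in control and 3.63 ± 0.202 in EFV-treated retina, with a log2 fold change of -0.17 (SE 0.14, 95% interval -0.48 to 0.15, edgeR unadjusted p = 0.263, adjusted p = 0.999). The within-group coefficient of variation (CV) of C1qc was 3.26%, while counting error alone at its depth of 83 to 101 counts per library is 10.4%. Of the 609 genes with a like count, 0.657% had a lower CV. The separation of the groups of C1qc thus went with a spread between libraries below that of counting.

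Summed over the 3 chains, C1q FPKM was 13.06, 12.30 and 12.92 in control and 11.58, 11.62 and 11.99 in EFV-treated retina. The sum was thus lower in every EFV-treated library than in every control library, with means of 12.8 ± 0.404 and 11.7 ± 0.226, and the same held for the summed CPM (12.66 to 13.19 against 11.62 to 11.97). The underlying read numbers were 325, 292 and 318 in control and 287, 285 and 293 in EFV-treated retina, and these overlapped, control 2 being the library with the fewest counts in all. Counting error on each of these sums was 5.55 to 5.92%. An exact permutation test of 3 against 3 libraries cannot give a two-sided p below 0.1, and the sum was put together from members chosen with results known, so no p is given for it.

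The chains contributed nearly equally. C1qa made up 36.5% ± 4.57 (SD, n = 3) of the C1q FPKM in control and 35.5% ± 2.98 in EFV-treated retina, C1qb 31.9% ± 4.88 and 33.6% ± 2.98, and C1qc 31.6% ± 0.462 and 30.9% ± 1.65. All 3 shares overlapped between the groups. Among the controls, control 3 had the lowest C1qa and the highest C1qb share.

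**Figure D2:**
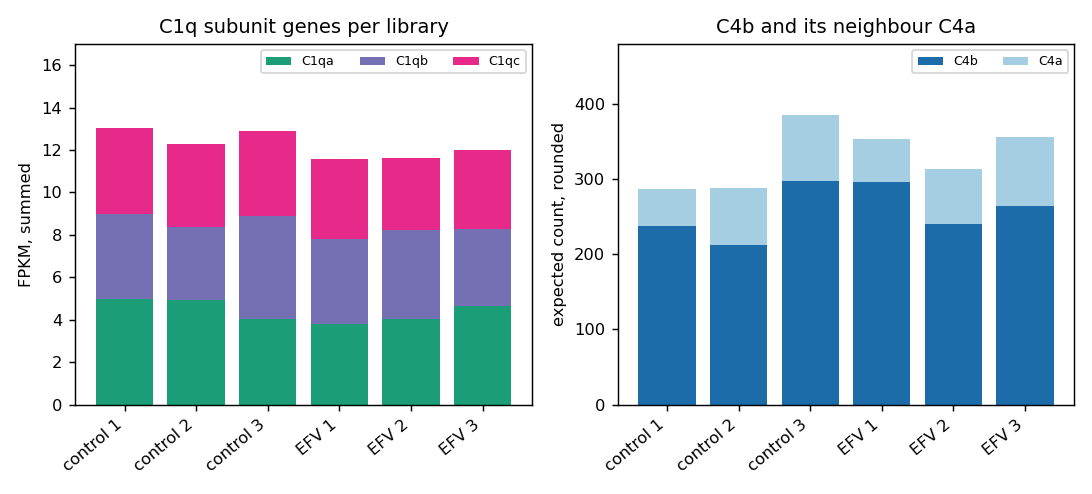
Left, FPKM of C1qa, C1qb and C1qc stacked for each of the 6 libraries; right, rounded expected counts of C4b and its near copy C4a, stacked in the same way. The C1q stack was 12.30 to 13.06 FPKM in control and 11.58 to 11.99 in EFV-treated libraries, and C4a made up 16.4 to 26.4% of the C4 counts.

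C1q is made mainly by microglia, and none of the general markers of these cells passed the test. The summed FPKM of 12 microglial marker genes was 33.84, 31.07 and 31.07 in control and 34.76, 30.78 and 33.38 in EFV-treated retina, and the groups overlapped. Of the 10 markers that could be tested, 6 had a log2 fold change above 0 and 4 below 0, the range was -0.26 to 0.33, and 0 had an edgeR unadjusted p of 0.05 or less. By CPM the groups lay apart for 2 of the 10 tested markers, both higher in EFV-treated libraries. Over all genes tested, the groups lay apart for 8.14% in either direction and for 3.95% with EFV-treated libraries higher. Cx3cr1 was 1 of these 2 markers (log2 fold change 0.11, edgeR unadjusted p = 0.411). Aif1, which was under the count filter, lay lower in every EFV-treated library than in every control library. Its counts were only 9, 14 and 8 in control and 7, 5 and 5 in EFV-treated retina, with a counting error of 35.4%. Among all genes tested, 4.18% had groups apart by CPM with EFV-treated libraries lower. Csf1r, the receptor that keeps microglia alive, had a log2 fold change of 0.09 (edgeR unadjusted p = 0.485), and P2ry12, the purinergic receptor of resting microglia, of -0.10 (edgeR unadjusted p = 0.577). Tyrobp, the adaptor of the microglial receptor Trem2, had a log2 fold change of -0.26 (edgeR unadjusted p = 0.278), whereas that of Trem2 was 0.33 (edgeR unadjusted p = 0.296). Fcrls was also under the filter. Whether the number of microglia had a part in the C1q values was not tested.

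The central components C4b and C3 differed in how stable they were between pools. C4b, which supplies the C4 that C1 cleaves, had FPKM values of 1.80, 1.68 and 2.28 in control and of 2.25, 1.83 and 2.04 in EFV-treated retina. Control 3 was highest and control 2 lowest, so the EFV-treated libraries lay inside the control range. The means were 1.92 ± 0.317 and 2.04 ± 0.210, with a log2 fold change of 0.07 (SE 0.13, 95% interval -0.22 to 0.36, edgeR unadjusted p = 0.598), and the fold was between 0.858 and 1.28 by that interval. The direction was not stable, as the log2 fold change was 0.21 without control 3, the library with the lens markers, and -0.01 without control 2.

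C4a took 49, 76 and 87 counts in control and 58, 74 and 92 in EFV-treated retina, or 16.4 to 26.4% of the counts of the pair. The shares of C4a overlapped between the groups. When C4b and C4a were summed before the fit, which removes the uncertainty of dividing shared reads, the log2 fold change was 0.07 (SE 0.12). The sum of the pair thus had the same log2 fold change as C4b alone. The C4b entry of the gene table also included a transcript assembled by the sequencing provider, and so did that of Serping1.

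C3, the point where all pathways of complement meet, had CPM values of 5.44, 3.08 and 3.09 in control and of 3.28, 5.08 and 2.45 in EFV-treated retina. One library of each group, control 1 and EFV-treated 2, was well above the other 4. The counts behind them were 134, 71 and 75 against 81, 123 and 60. The log2 fold change was -0.10 (SE 0.31, 95% interval -0.81 to 0.60, edgeR unadjusted p = 0.745), and the interval of the fold, 0.572 to 1.51, was wide. The within-group CV of C3 was 36.2%, against 10.5% from counting and a median of 13.1% for genes of a like count, of which 95.7% had a lower CV. The sign depended on single libraries: the log2 fold change was 0.22 without control 1, -0.44 without EFV-treated 2 and 0.11 without EFV-treated 3.

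The macrophage gene Lyz2, which encodes lysozyme, had its highest values in the same pair of libraries. Its CPM was 3.00, 1.56 and 1.28 in control and 1.50, 2.69 and 2.08 in EFV-treated retina, so control 1 and EFV-treated 2 ranked first and second for both genes. EFV-treated 3, however, came next after them for Lyz2 and was lowest for C3. The summed FPKM of all 6 macrophage markers other than microglial ones was 1.50 to 3.16 in control and 1.63 to 2.96 in EFV-treated retina, and nearly all of it was Lyz2. Ms4a7, Mrc1, Cd163, Ccr2 and F13a1 were at or under 0.14 FPKM in every library, and Ccr2, the receptor of blood monocytes, was at 0.01 or 0. With at most 15 counts in any library, Ms4a7, Mrc1, Cd163 and F13a1 did not share the pattern of Lyz2, as none was highest in control 1. Mrc1 and Cd163 were highest in EFV-treated 2, and Ms4a7 and F13a1 in other control libraries. The part of macrophages in the spread of C3 was not tested.

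**Figure D3:**
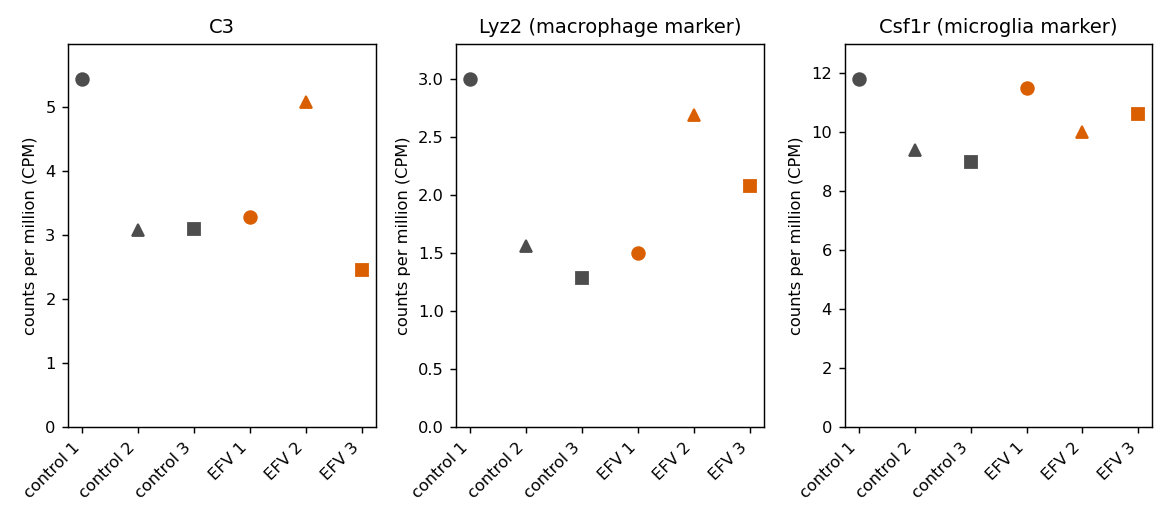
CPM of C3, of the macrophage marker Lyz2 and of the microglia marker Csf1r in each of the 6 libraries, each on its own axis from 0. C3 and Lyz2 were both highest in control 1 (5.44 and 3.00) and next in EFV-treated 2 (5.08 and 2.69), while Csf1r stayed between 8.99 and 11.8.

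Among the regulators, Serping1 encodes C1 inhibitor, which inactivates the proteases C1r and C1s. Its FPKM was 4.03, 3.28 and 4.96 in control and 4.11, 4.48 and 4.28 in EFV-treated retina. The EFV-treated values lay inside the control range, whose ends were again control 2 and control 3. The log2 fold change was 0.05 (SE 0.15, 95% interval -0.29 to 0.38, edgeR unadjusted p = 0.754). It was -0.08 without control 2 and 0.21 without control 3.

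Cfi encodes factor I, the serine protease that cleaves C3b and C4b. It had only 12, 11 and 9 counts in control and 6, 17 and 17 in EFV-treated retina. EFV-treated 1 was the lowest and the other EFV-treated libraries were the highest of all 6. The log2 fold change of 0.29 (SE 0.44, 95% interval -0.70 to 1.28, edgeR unadjusted p = 0.520) came with an interval of the fold from 0.617 to 2.43, the widest among the 9 genes.

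Cd55 encodes decay accelerating factor, which dissociates the C3 convertases. Its counts were 18, 11 and 24 in control and 18, 22 and 10 in EFV-treated retina, so that both groups covered nearly the same range. The log2 fold change was -0.11 (SE 0.39, 95% interval -0.99 to 0.78, edgeR unadjusted p = 0.793), and it was 0.17 without control 3 and 0.16 without EFV-treated 3. An antisense gene, Gm16083, overlaps 102 bases of the exons of Cd55, and the strandedness of the counting is not given in the sources used here. Cd55b, the near copy of Cd55, had at most 1 count in a library.

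Cd59a encodes the CD59 that blocks assembly of the membrane attack complex, and it was measured best, with 1432 to 1691 counts per library. Its FPKM was 36.57, 38.85 and 34.65 in control and 40.74, 40.96 and 36.63 in EFV-treated retina. EFV-treated 1 and 2 were above all controls, and EFV-treated 3 was within the control range. The means were 36.7 ± 2.10 and 39.4 ± 2.44, with a log2 fold change of 0.09 (SE 0.06, 95% interval -0.06 to 0.23, edgeR unadjusted p = 0.209, adjusted p = 0.999). This interval holds folds of 0.960 to 1.18, the narrowest among the 9 genes. Without EFV-treated 3 the log2 fold change was 0.14 and the unadjusted p fell to 0.0449 (edgeR, adjusted p = 0.998). Under a Poisson model, where only counting error enters, the adjusted p of Cd59a was 0.0278, and the same model called 13.1% of all genes tested at the adjusted threshold and 14.8% at the limits of an unadjusted p of 0.05 or less and a change of at least 7%. In its proteomics, the study lists the protein CD59A among those that differed between EFV-treated and control retina. RNA and protein were not compared here.

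The spread between pools was thus unlike among the members. For Cd59a the within-group CV was 6.60% against a counting error of 2.53%, for C4b 13.1% against 6.23% and for Serping1 14.5% against 7.32%. Genes of a like count had a median CV of 4.48%, 8.42% and 9.69%, and 82.7%, 84.2% and 81.6% of them had a lower CV than Cd59a, C4b and Serping1. The CV exceeded counting by a smaller factor for C1qa (10.8% against 9.56%), C1qb (13.3% against 10.1%), Cfi (38.6% against 28.9%) and Cd55 (36.1% against 24.1%). C3 stood at the upper end and C1qc at the lower end.

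**Figure D4:**
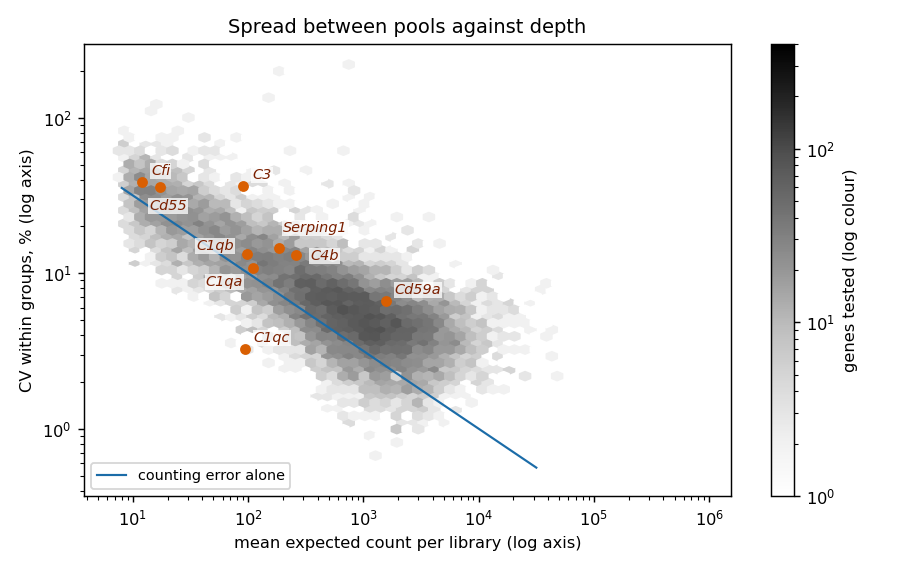
Within-group CV in percent against mean expected count per library for all genes tested (grey, log axes) and for the 9 complement genes (orange), with the line that counting error alone would give. C3 lay above most genes of its depth (36.2%) and C1qc below the counting line (3.26%).

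Counted over the 9 members, 0 passed an adjusted p of 0.05 and 0 passed the looser limits of an edgeR unadjusted p of 0.05 or less with a change of at least 7%. Over all genes tested, the edgeR test called 0.00% at the adjusted threshold and 3.01% at the looser limits, and 472 genes, or 3.04%, had an unadjusted p of 0.05 or less. DESeq2 called 11 genes at the adjusted threshold, none of them a member. Of the members, 4 had a log2 fold change above 0 and 5 below 0, with a median of -0.07, and the median over all genes tested was 0.00. The smallest unadjusted p among the members was 0.209, for Cd59a.

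The remaining complement genes were taken from a list of 49, arranged by role. Of these, 43 were in the files and 25 had enough counts for a test, and the other 18 of those in the files had at most 16 counts in any library. Of the 25, 14 had a log2 fold change above 0 and 11 below 0, with a median of 0.03. One of them, Csmd1, passed the looser limits, and 0 passed the adjusted threshold.

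Among the initiators of the classical and lectin pathways, 7 of 15 genes were testable and 0 passed. Masp2, a protease of the lectin pathway, was the most abundant, with FPKM values of 3.66, 1.79 and 1.59 in control and 1.93, 1.97 and 2.78 in EFV-treated retina. Its control 1 library was far above the other controls. The log2 fold change on counts was 0.37 (SE 0.32, edgeR unadjusted p = 0.285), and without control 1 it was 0.76 (edgeR unadjusted p = 0.034, adjusted p = 1.0). The FPKM means of Masp2, 2.35 ± 1.14 and 2.23 ± 0.480, had the opposite order, and the gene length in the files ranged from 1110 to 1739 bases between libraries. C2, the protease that joins C4b in the C3 convertase, was at 0.587 ± 0.156 and 0.557 ± 0.198, with a log2 fold change of -0.10 (SE 0.32, edgeR unadjusted p = 0.770).

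The alternative pathway was represented by Cfb, which encodes factor B, and Cfp, which encodes properdin, and 0 of the 2 passed. Their log2 fold changes were 0.03 (SE 0.09, edgeR unadjusted p = 0.724) and 0.07 (SE 0.05, edgeR unadjusted p = 0.187). Both levels are uncertain, because the gene lengths in the files, 5741 to 5954 bases for Cfb and 5281 to 5934 for Cfp, are well above the reference transcripts of 2751 and 1636 bases. Cfb also shares 2246 exon bases with Gm20547 on the same strand. Cfd, which encodes factor D, had at most 1 count in a library.

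The terminal pathway was nearly silent at this depth. Only C8g, 1 of 7 genes, was testable, and its log2 fold change was 0.48 (SE 0.45, edgeR unadjusted p = 0.313). Hc, which encodes C5, and C6, C7, C8a and C8b had at most 4 counts in any library.

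Among fluid-phase regulators, 3 of 6 genes were testable and 0 passed. Vtn, which encodes vitronectin, and Clu, which encodes clusterin, inhibit the terminal complex and were the most abundant of the 34 complement genes tested. Clu had FPKM values of 356.99, 352.62 and 429.34 in control and 336.48, 357.98 and 349.17 in EFV-treated retina, with a log2 fold change of -0.14 (SE 0.07, edgeR unadjusted p = 0.0865). Control 3, the library with the lens markers, was highest. Clu is also in the table of changed genes that the study made from these samples. Vtn was at 485.11 to 523.09 FPKM in control and 470.22 to 514.94 in EFV-treated retina, with a log2 fold change of -0.04 (SE 0.05, edgeR unadjusted p = 0.396).

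Among the membrane regulators, 6 of 8 genes were testable and 1 passed. Csmd1 encodes a large membrane protein with complement control domains that is made by neurons. Its FPKM was 1.31, 1.33 and 1.37 in control and 1.64, 1.49 and 1.50 in EFV-treated retina, so every EFV-treated library was above every control. The means were 1.34 ± 0.0306 and 1.54 ± 0.0839, with a log2 fold change of 0.19 (SE 0.07, edgeR unadjusted p = 0.0162, adjusted p = 0.999). Without control 1 the unadjusted p was 0.0563 and without EFV-treated 1 it was 0.0633, and DESeq2 gave an unadjusted p of 0.057. Among all genes tested, 1.47% were higher and 1.54% lower at these limits. The paralogs Csmd2 and Csmd3 had log2 fold changes of -0.06 (SE 0.11) and -0.16 (SE 0.10), and without EFV-treated 1 Csmd3 passed the looser limits, lower, in place of Csmd1. Susd4, a further membrane regulator, was the most abundant of this group (20.1 ± 1.12 FPKM over the 6 libraries, log2 fold change 0.05, SE 0.05), and Cr1l, which encodes the rodent regulator Crry, had a log2 fold change of -0.17 (SE 0.17, edgeR unadjusted p = 0.361).

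Among the receptors, 6 of 10 genes were testable and 0 passed. C1qbp, which encodes a mainly mitochondrial protein that can bind C1q, was at 25.3 ± 1.59 and 27.4 ± 1.78 FPKM (log2 fold change 0.10, SE 0.07, edgeR unadjusted p = 0.200). Itgam, the alpha chain of complement receptor 3 on microglia, was at 0.433 ± 0.0929 and 0.390 ± 0.0624 (log2 fold change -0.17, SE 0.24, edgeR unadjusted p = 0.486). Cd93, of the same list, was at 0.387 ± 0.00577 and 0.363 ± 0.0839 (log2 fold change -0.10, SE 0.21, edgeR unadjusted p = 0.652). C3ar1, the receptor of the anaphylatoxin C3a, was at 0.157 ± 0.116 and 0.163 ± 0.0321 FPKM, with the highest value in control 2 (0.29).

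**Figure D5:**
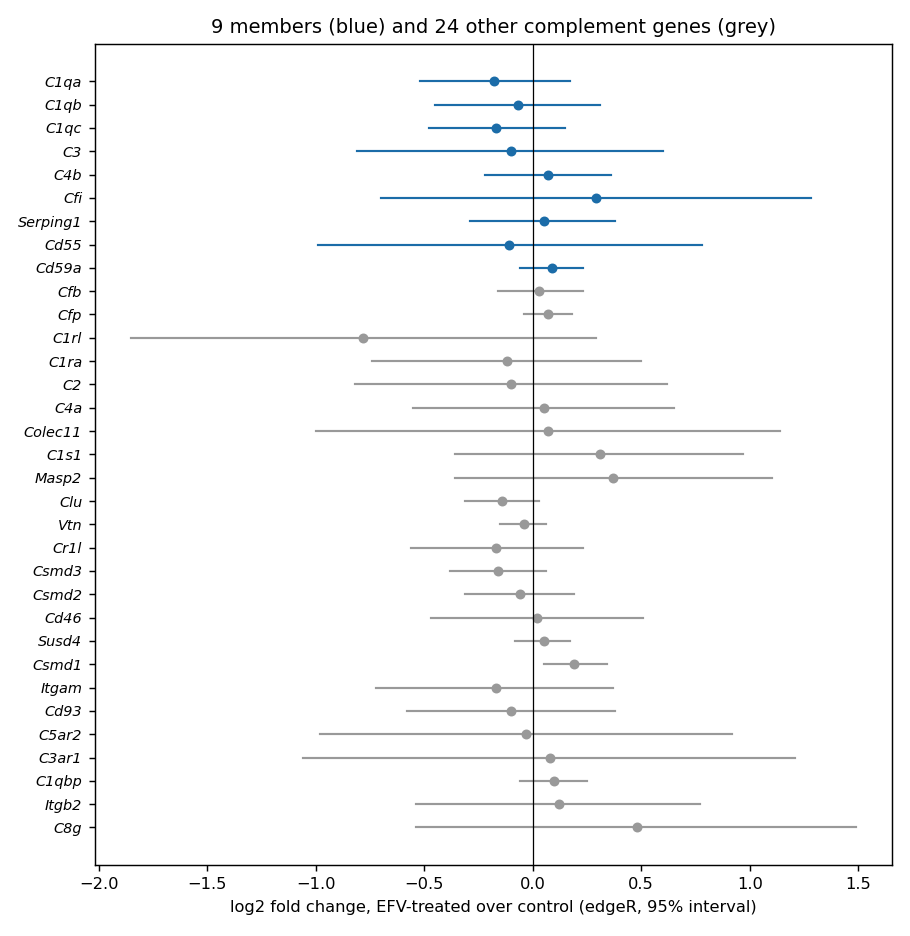
log2 fold change of EFV-treated over control retina with its 95% interval for the 9 members (blue, top) and 24 of the other complement genes with enough counts (grey, by role). All intervals of the members include 0, with Cd59a the narrowest and Cfi the widest, and Csmd1 is the gene whose interval lies above 0.

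Genes with the most similar pattern over the 6 libraries were looked up by the distance between log2 CPM deviations, among 12291 to 12294 genes with a mean FPKM of at least 1. The mean of the C1q genes was closest to Syf2, which encodes a splicing factor, at a distance of 0.015, to Pcid2 (0.018) and to Gla, which encodes alpha-galactosidase A (0.024). None of these genes belongs to complement, and the C1q pattern itself was shallow, with a root mean square deviation of 0.070. C3, with a deviation of 0.405, was closest to Fxyd2, a regulator of the sodium pump (0.122), then to Crhbp (0.198) and Rab38 (0.200). C4b, with a deviation of 0.155, was closest to Mtm1, which encodes myotubularin (0.032), then to Prkd1 (0.039) and Slitrk2 (0.047). These nearest genes were picked out of all genes compared, over 6 libraries, and are a description of the patterns.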

How the data were processed

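Retinal RNA of 3 control and 3 EFV-treated pools of 5XFAD mice was measured by RNAseq of poly-A selected RNA, per the labels. The authors aligned filtered reads to mm10 with Bowtie2 2.2.5 and estimated expected counts of each gene by RSEM 1.2.12, without normalization, and HISAT2 2.0.4 is also among the tools in the submitters' processing notes. The deposited FPKM values came from RSEM too and are scaled by gene length and library total; the smallest one listed is 0.01, so a gene missing from a library was taken as 0. The annotation release is not given in the sources used here. The 1696 BGI_novel entries were tested with the rest but not described.

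Expected counts were rounded, the 15537 genes that reached 10 counts in 3 or more libraries were kept, and groups were compared by two-sided edgeR quasi-likelihood tests (version 4.0.16, R 4.3.3) with TMM scaling, no covariate and Benjamini-Hochberg adjustment over these genes. The unadjusted limits (p of 0.05, change of 7%) follow the threshold of the study, where it rested on a Poisson distribution. Here they were applied to the p of edgeR. Alternatives were RLE, upper quartile and total count scaling, no filter and a filter at 1 CPM, DESeq2 1.42.0, a Poisson model, limma 3.58.1 on log2(FPKM + 0.1), (FPKM + 1) and (FPKM + 0.01), the replicate number as a block, near-identical genes summed, and leaving out each library. Within-group CVs are of CPM. Genes of a like count are those between 0.8 and 1.25 times the mean count. Each SE was worked back from the edgeR test, as the absolute log2 fold change divided by the square root of the F statistic. The 95% intervals were built from these SEs with a t quantile. Counting error covers the reads alone, and these 95% intervals also hold the spread between pools.

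All 9 members are described. The other complement genes named are, per role, up to 3 of the highest mean FPKM and any with an unadjusted p of 0.05 or less, except that 1 further complement gene and 1 marker gene are not reported by name here; C3ar1, Csmd3 and the undetected genes were chosen after their values were seen. The members, the role lists and the marker lists were chosen with earlier results of these data known. The columns of the files hold no comparison by the authors. The proteomic, imaging and exome data of the study were not analysed here.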

Additional observations from a re-analysis of the deposited data

How the results depend on the processing

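Across the 9 members and every alternative, 145 log2 fold changes kept their direction and their side of the adjusted threshold, 8 reversed and 1, Cd59a in the Poisson model (adjusted p = 0.0278), passed it. The 8 reversals all came from leaving out 1 library. The range over the 6 fits without 1 library each was -0.17 to 0.07 for C1qb (0.07 without control 3), -0.44 to 0.22 for C3 (0.22 without control 1, 0.11 without EFV-treated 3), -0.01 to 0.21 for C4b (-0.01 without control 2, -0.00 without EFV-treated 1), -0.08 to 0.21 for Serping1 (-0.08 without control 2) and -0.37 to 0.17 for Cd55 (0.17 without control 3, 0.16 without EFV-treated 3). It was -0.27 to -0.12 for C1qa, -0.20 to -0.13 for C1qc, 0.07 to 0.65 for Cfi and 0.05 to 0.14 for Cd59a, with no reversal. Cfi and Cd55 have no value under the filter at 1 CPM in 3 libraries, which removes them.

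Over all genes, the adjusted threshold called 11 genes in DESeq2 (1 with a gene symbol) and 2043 in the Poisson model, and 0 to 1 without 1 library each (1 without EFV-treated 1). The looser limits called 269 genes in DESeq2 and 2305 in the Poisson model, against 467 in edgeR. Of the members, 1 (Cd59a) passed the adjusted threshold in the Poisson model, and 0 to 1 passed the looser limits without 1 library each (Cd59a without EFV-treated 3). Of the other complement genes, 6 passed the looser limits in the Poisson model, 0 in limma on log2(FPKM + 0.1), 0 on log2(FPKM + 1) and 0 on log2(FPKM + 0.01), and 1 to 3 without 1 library each. The 3 without control 1 were Clu, Masp2 and C1rl, without Csmd1, and the 2 without control 2 were Clu and Csmd1. Without EFV-treated 1 the 1 gene was Csmd3, with a log2 fold change of -0.25, in place of Csmd1. In DESeq2, Clu passed in place of Csmd1. The cause of these changes was not tested, except that the Poisson model leaves out the spread between pools by construction.

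The control and EFV-treated libraries share replicate numbers, but the deviations of same-numbered libraries correlated weakly (r = 0.125, 0.083 and 0.099), so the numbers were not taken as pairs, although each library correlated best with its own number. With the replicate number as a block, 514 genes passed the looser limits against 467 without it, 0 members passed either threshold, and 1 other complement gene (Csmd1) passed the looser limits. Counting error limits Cfi and Cd55 most, and 3 pools a group limit all members.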
